A study of Mus musculus with 6 samples.

Results

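The 7 genes described here encode connexins, and they were chosen by symbol as the family members known from vessel walls, peripheral nerve and their wrappings: Gja1, Gja4, Gja5, Gjc1, Gjb2, Gjb6 and Gjc3, of 32285 genes in the files. Single-cell RNA sequencing had been done on tdTomato+ cells sorted from mouse dorsal skin, 2 mice per group, each mouse giving 1 library (S1 and S2). WT telogen mice (postnatal day 20) and WT anagen mice (postnatal day 32) carried tdTomato, Cdh5-CreERT2 and Krt14-H2BGFP on a C57BL/6;CD1 background. Alk1 KO telogen mice (postnatal day 25) were Alk1 flox/flox with tdTomato and Cdh5-CreERT2 on C57BL/6, with no Krt14-H2BGFP allele named. Both were assigned to KO by their titles, although the genotype field of their labels reads wild type. All mice had received tamoxifen at 200 µg/g on postnatal day 17. Recombination and labeling were thus driven by the promoter of Cdh5 (VE-cadherin), best known as an endothelial gene. The paper also reports Cdh5 at medium levels in perineurial cells and at low levels in pericytes and Schwann cells. Age, strain and the Krt14-H2BGFP allele differed between KO and WT telogen together with genotype, and their parts in any KO difference cannot be told apart. The paper describes the WT cells as sorted for tdTomato without Krt14-H2BGFP signal, and the KO cells only as sorted for tdTomato. This sorting step may therefore also have differed with genotype.

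Connexins are membrane proteins that assemble into rings, and rings of neighbouring cells dock into gap junctions that pass ions and small metabolites from cell to cell. In vessels Gja1 (Cx43), Gja4 (Cx37), Gja5 (Cx40) and Gjc1 (Cx45) couple endothelial cells (ECs) with each other and with mural cells, and carry vasomotor signals along the arterial wall, while Gja1 and Gja4 also take part in forming lymphatic valves. In nerve, Gjc3 (Cx29) belongs to myelinating Schwann cells, and Gja1 and the beta connexins Gjb2 (Cx26) and Gjb6 (Cx30) occur in barrier cells and epithelia.

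After filtering, 20941 cells remained, with 1713 to 5106 cells and 9525626 to 39357932 UMIs (unique molecular identifiers, each counting 1 captured transcript) per library. The KO libraries were the smallest, with 1713 and 1958 cells. Between 1 and 8 cell barcodes were shared by any pair of libraries, at most 0.234% of the smaller one. By Xist and Ddx3y, WT telogen S1 and both KO libraries were female, and WT telogen S2 and both WT anagen libraries male, so that sex differed within the telogen controls. Populations were named from markers, with the 7 connexins left out of the clustering, but the genes that built the clusters came from the same cells. Tests were made on UMIs summed per library and population with edgeR's quasi-likelihood test, and genes were called when the adjusted p was below 0.05 and the fold above 1.3. Levels are given as CPM, the UMIs of a gene scaled to a fixed total of UMIs for that population in that library. The 3′ tags read here need not lie in the floxed part of Acvrl1 (Alk1) and check nothing about its deletion. In Artery, Acvrl1 stood at 317 and 281 CPM in WT telogen and 305 and 257 CPM in KO, which overlapped. In Cap-Rgcc (199 and 167 against 119 and 99.3 CPM) and Cap-Kdr (164 and 144 against 108 and 94.7 CPM) the KO values were lower without overlap. The same held in Vein (130 and 114 against 101 and 110 CPM). Lymph-Col (67.1 and 60.3 against 64.1 and 46.5 CPM) and Lymph-Cap (80.8 and 54.2 against 71.1 and 48.7 CPM) overlapped.

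Of the kept cells, 12805 held at least 1 connexin UMI. Gja1 was found in 9065 cells (39299 UMIs), Gja4 in 4416 (15615 UMIs), Gjc1 in 2922 (4328 UMIs) and Gja5 in 746 (1474 UMIs). The other members were rare, with 354 UMIs of Gjb2, 282 of Gjc3 and 3 of Gjb6. In the 4 WT libraries, 88.5% of Gja5 UMIs and 63.5% of Gja4 UMIs came from Artery, 33.3% of Gja1 UMIs from Cap-Rgcc, 21.1% of Gjc1 UMIs from pericyte-like cells (and 17.9% from Lymph-Col), 71.6% of Gjb2 UMIs from perineurial-like cells and 97.1% of Gjc3 UMIs from Schwann-like cells. These shares depend on how many cells of each population were captured, so levels per population follow.

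**Figure D1:**
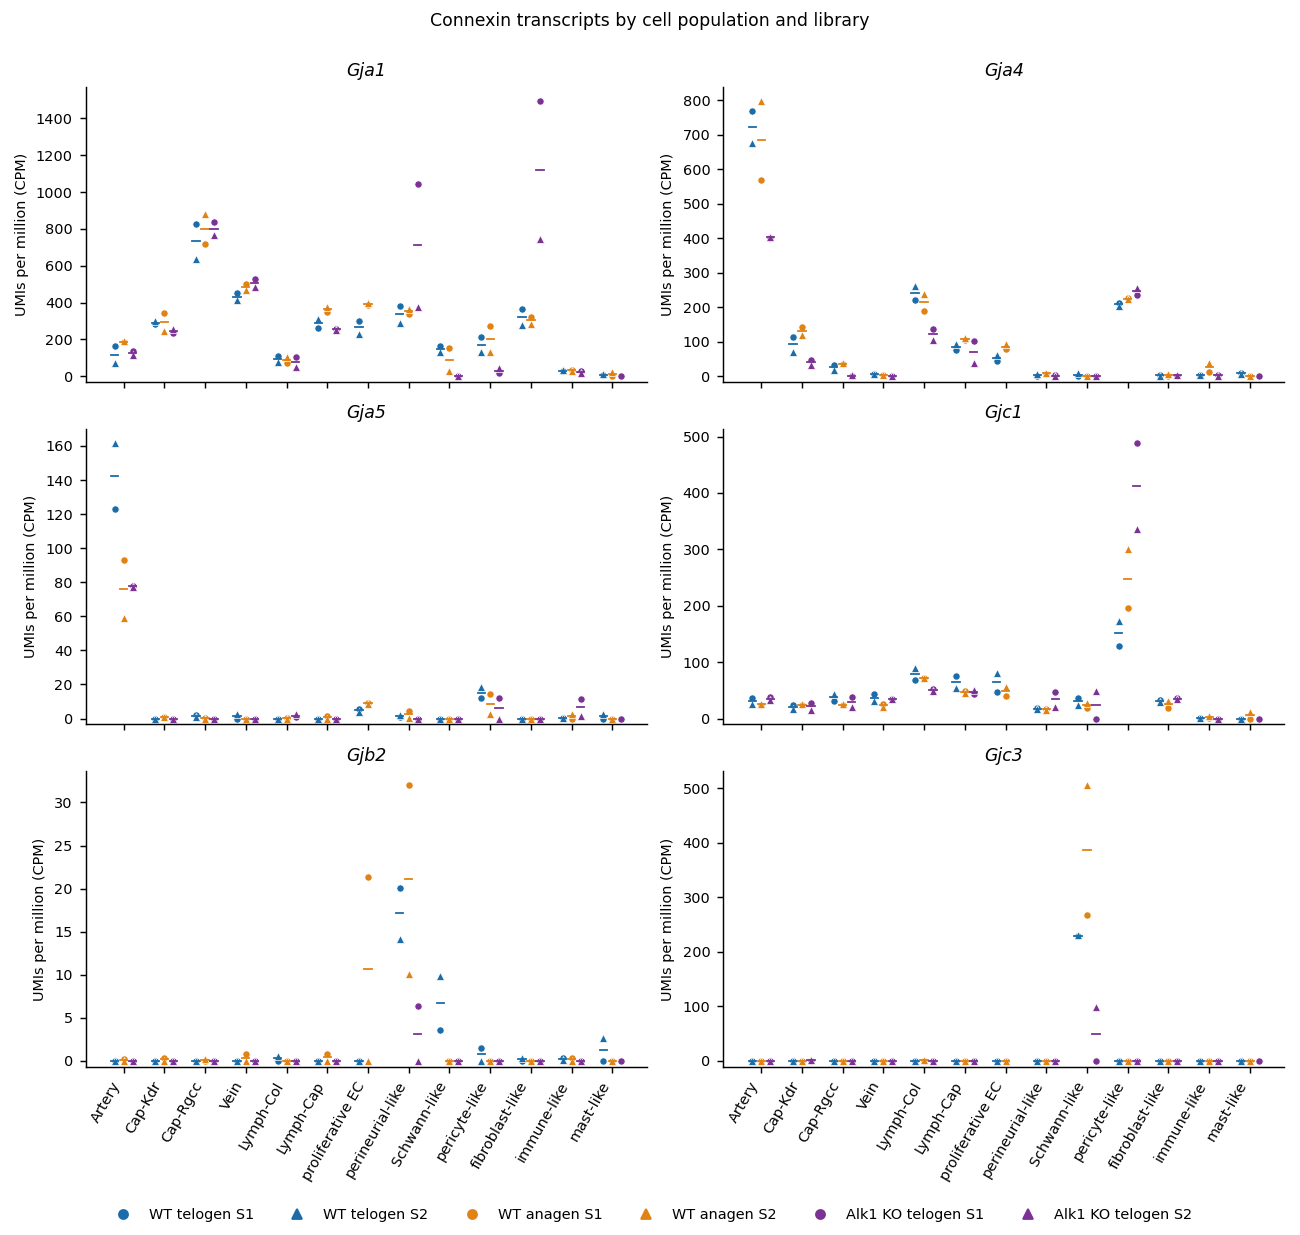
Level of 6 connexins (CPM, on a linear scale) in 13 cell populations, 1 point per library with at least 5 cells, and a bar at the mean of each group of 2; proliferative EC had no KO cells. Gja5 and Gja4 stood highest in Artery, Gja1 in Cap-Rgcc in the WT libraries, Gjc1 in pericyte-like cells, Gjb2 in perineurial-like cells and Gjc3 in Schwann-like cells.

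Gja5, whose channel joins arterial ECs end to end, lies on chromosome 3 (96904693 to 97077416, + strand, GRCm38). It was an arterial transcript in every WT library, with 123 and 162 CPM in Artery of WT telogen S1 and S2 and 92.9 and 59.1 CPM in WT anagen S1 and S2. In Vein, Cap-Kdr and Cap-Rgcc it gave 0 to 3 UMIs per library, at most 2.62 CPM, and the groups did not overlap (adjusted p = 1.05e-24; with so few UMIs no fold is given). Second in order were pericyte-like cells at 12.1, 18.3, 14.4 and 2.86 CPM, followed by proliferative EC at 3.85 to 9.16 CPM, whose libraries overlapped. Lymph-Col, Lymph-Cap, fibroblast-like and Schwann-like cells held 0 to 2 UMIs per library.

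Gja4, which in arteries shares the cell border with Gja5 and in collecting lymphatics marks valve-forming cells, lies on chromosome 4 (127311421 to 127314039, − strand). Its Artery level was 768, 676, 570.0 and 799 CPM in WT telogen S1 and S2 and WT anagen S1 and S2. Lymph-Col (189 to 263 CPM) and pericyte-like cells (203 to 228 CPM) came next and overlapped with each other, followed by Cap-Kdr (69.7 to 143 CPM) and Lymph-Cap (75.1 to 111 CPM). Cap-Rgcc had 18.6 to 37.2 CPM and Vein 3.04 to 7.74 CPM, so that among blood ECs the gene fell off from Artery to Cap-Kdr, Cap-Rgcc and Vein with no overlap between these neighbours. Against the mean of Vein, Cap-Kdr and Cap-Rgcc, Gja4 in Artery was higher by 4.81 on the log2 scale (SE 0.24, adjusted p = 4.29e-22, higher in 4 of 4 WT libraries). In the same comparison Gja1 was lower in Artery, with -1.64 on the same scale (SE 0.18, adjusted p = 1.01e-10), and 3 of 6 members tested were called where 29.6% of all genes were.

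The bases just before the start of these arterial connexin genes are shown because both genes were lower in KO Artery, as described further on. Each line gives 250 bases upstream of a transcript start of the RefSeq annotation (GRCm38.p6), read along the strand of the gene: chr4:127314040-127314289 (− strand) for Gja4 and chr3:97032152-97032401 (+ strand) for Gja5, whose window lies inside the gene's full annotated span. Capitals mark matches, on either strand, to CAGAC (a SMAD4 element), CACCC (a KLF element), GGGCGG (an SP1 GC box) and ACAAAG (a SOX element).
Gja4: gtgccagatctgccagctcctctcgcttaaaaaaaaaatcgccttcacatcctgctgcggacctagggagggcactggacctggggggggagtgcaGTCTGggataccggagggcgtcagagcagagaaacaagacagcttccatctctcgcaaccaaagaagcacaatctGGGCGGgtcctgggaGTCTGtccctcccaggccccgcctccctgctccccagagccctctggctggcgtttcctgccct
Gja5: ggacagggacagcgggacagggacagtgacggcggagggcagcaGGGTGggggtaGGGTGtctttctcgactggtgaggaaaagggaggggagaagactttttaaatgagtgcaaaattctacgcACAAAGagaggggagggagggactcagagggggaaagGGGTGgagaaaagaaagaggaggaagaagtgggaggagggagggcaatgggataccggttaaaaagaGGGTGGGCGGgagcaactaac
The Gja4 window held CAGAC 2 times (bases 154 to 150 and 64 to 60 before the start, opposite strand) and GGGCGG 1 time (79 to 74). The Gja5 window held CACCC 4 times (206 to 202, 195 to 191, 88 to 84 and 21 to 17, opposite strand), GGGCGG 1 time (17 to 12, sharing 1 base with the last CACCC) and ACAAAG 1 time (125 to 120). Neither window held GGCGCC (a BMP-SMAD element) or TGGGAA (an RBPJ element). Such short words are common: of 32851 promoter windows of this length, 42.2% held CAGAC, 52.0% CACCC, 32.7% GGGCGG, 16.5% ACAAAG, 9.59% GGCGCC and 21.6% TGGGAA. Of the other members with a window, Gja1 had none of the 6 words, Gjb2 had CACCC 7 times, GGGCGG 2 times and GGCGCC 1 time, Gjb6 had CACCC 1 time and Gjc3 CAGAC 2 times.

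Artery was made of 2 sub-clusters, E2 and E4, which are described by values only since they were looked at after the levels were known. Gja5 stood at 228, 277, 182 and 118 CPM in E2 and at 24.9, 13.1, 22.6 and 8.81 CPM in E4 (WT telogen S1 and S2, WT anagen S1 and S2). Gja4 differed less, at 673 to 1028 CPM in E2 and 489 to 652 CPM in E4. Gja1 ran the other way, with 34.9 to 145 CPM in E2 and 116 to 238 CPM in E4, above E2 within each of the 4 WT libraries. At single-cell level, after each cell was thinned to 1500 UMIs, a Gja4 UMI was seen in 59.1 to 68.4% of Artery cells with a Gja5 UMI and in 46.3 to 55.2% of Artery cells without one in the 4 WT libraries. Thinning left out 9 of 415 WT telogen and 65 of 1819 WT anagen Artery cells.

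**Figure D2:**
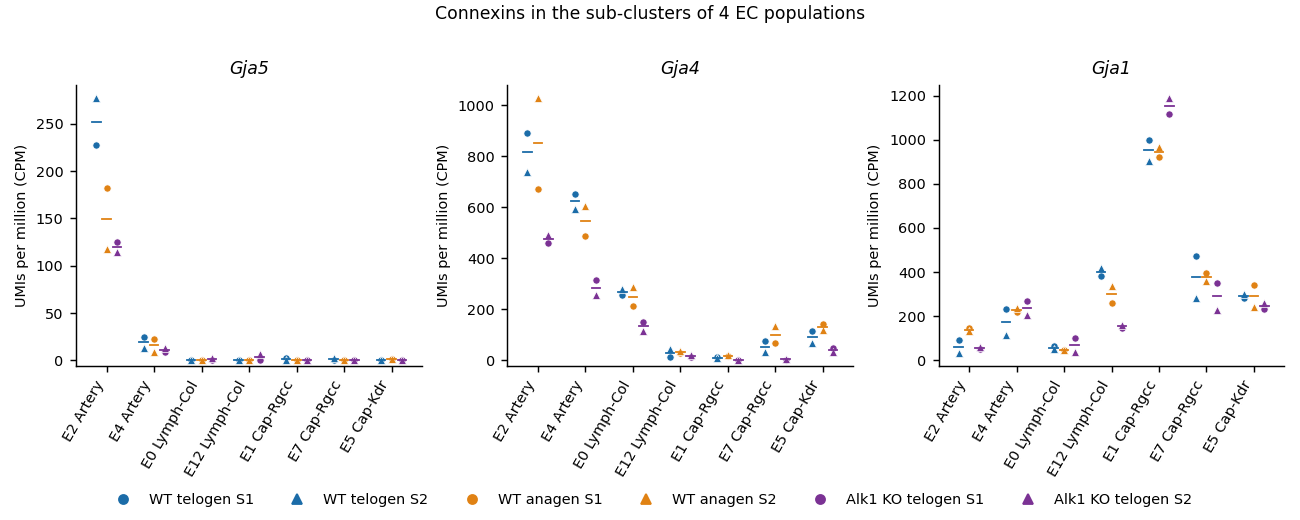
Level (CPM, linear scale) of Gja5, Gja4 and Gja1 in the sub-clusters of Artery, Lymph-Col, Cap-Rgcc and Cap-Kdr, 1 point per library and a bar at each group's mean. Gja5 was concentrated in E2 of Artery, Gja4 and Gja1 took opposite sub-clusters of Lymph-Col in the WT libraries, and Gja1 was higher in E1 than in E7 of Cap-Rgcc in each library.

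Gja1, the most widely expressed connexin of the body, lies on chromosome 10 (56377330 to 56402513, + strand). Cap-Rgcc held 828, 637, 720.4 and 879.9 CPM in WT telogen S1 and S2 and WT anagen S1 and S2. Vein followed with 412.7 to 499.6 CPM, below every Cap-Rgcc value, and perineurial-like cells with 292 to 381 CPM, below every Vein value. From there to Cap-Kdr (243 to 343 CPM), including proliferative EC, Lymph-Cap and fibroblast-like cells, neighbours in the order overlapped. Artery had 164, 70.3, 187 and 189 CPM and Lymph-Col 111, 77.0, 72.2 and 102 CPM, the lowest of the EC populations by mean. Immune-like cells held 28.8 to 33.5 CPM, and whether this was free RNA or their own transcript was not tested.

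Within Cap-Rgcc, Gja1 was again uneven between E1, with 5 capillary markers, and E7, with 11. E1 had 998, 905, 920.1 and 968 CPM. E7 had 472, 282, 397 and 359 CPM, which reached into the range of Vein. Gja4 was 8.59 to 20.8 CPM in E1 and 31.9 to 134 CPM in E7. After thinning to 1500 UMIs, 53.4 to 66.9% of WT Cap-Rgcc cells had a Gja1 UMI, against 2.67 to 5.97% of WT immune-like cells. Without thinning, the share in Cap-Rgcc was 73.3 to 85.2%. In Vein, E6 held Gja1 at 481 to 535 CPM and the smaller E13 at 73.1 to 159.8 CPM in the WT libraries.

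Blood and lymphatic ECs differed in 4 of the 6 members tested, beside 42.7% of all genes. On the mean of log2 levels over populations, Gja1 was higher in the 4 blood EC populations (log2 fold change 1.13, SE 0.13, adjusted p = 1.69e-10). Gja4 (-1.27, SE 0.21, adjusted p = 1.19e-06) and Gjc1 (-1.17, SE 0.13, adjusted p = 2.04e-10) were higher in the 2 lymphatic ones. Gja5 passed as well (adjusted p = 0.00589), on lymphatic counts of 0 to 2 UMIs, and lost the call without WT telogen S2 (1.76, adjusted p = 1.0), with cells under 5% mitochondrial UMIs (3.76, adjusted p = 1.0) and without correction between libraries (2.64, adjusted p = 1.0). The Gja4 difference averaged over blood populations that ran from 3.04 CPM in Vein to 799 CPM in Artery.

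Within the lymphatic tree Gja4 and Gja1 took opposite sides. Gja4 was higher in Lymph-Col than in Lymph-Cap (log2 fold change 1.36, SE 0.31, adjusted p = 0.000947), at 221, 263, 189 and 239 CPM against 75.1, 92.3, 105 and 111 CPM. Gja1 was lower in Lymph-Col (log2 fold change -1.78, SE 0.21, adjusted p = 3.59e-09), and its Lymph-Cap level was 262, 314, 350.4 and 378 CPM. None of the Lymph-Col and Lymph-Cap values overlapped for either gene, and these were 2 of 6 members called, beside 23.3% of all genes. Gjc1 (68.7 to 88.8 CPM in Lymph-Col, 45.1 to 75.1 CPM in Lymph-Cap) was not called, but was without WT telogen S1 (0.76, adjusted p = 0.0244).

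Inside Lymph-Col the same pair split by sub-cluster. The large sub-cluster E0 had Gja4 at 258, 280.3, 212 and 287 CPM and Gja1 at 45.1 to 63.3 CPM. The small E12, with 9.20 to 17.7% of WT Lymph-Col cells, had Gja4 at 14.2, 43.4, 28.3 and 37.9 CPM and Gja1 at 384, 419, 260.2 and 338 CPM. No WT library departed from this pattern. In single cells thinned to 1500 UMIs, Gja4 was seen in 8.33 to 11.1% of WT Lymph-Col cells with a Gja1 UMI and in 21.5 to 27.2% of those without one, on 3 to 5 cells with both per library. The 8 lymphatic valve genes listed beside the connexins (Foxc2, Gata2, Nfatc1, Itga9, Cldn11, Foxc1, Piezo1 and Sema3a) were called higher in Lymph-Col than in Lymph-Cap for 7 of 8, with a median log2 fold change of 1.27 against 0.0135 over all genes. Lymph-Col was the name given to lymphatic clusters, E0 and E12, that did not reach 3 of the Lymph-Cap markers Ccl21a, Lyve1, Pdpn and Reln. Foxc2, Gata2, Nfatc1, Itga9 and Cldn11 were listed as Lymph-Col markers but did not enter this naming. The 8 genes were also left out of the clustering. Both populations were still built from the same cells as this count, so it is a description and no support.

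Gjc1, the connexin of vascular smooth muscle and of the early embryonic heart, lies on chromosome 11 (102799579 to 102819700, − strand). Its highest level was in pericyte-like cells, at 129, 173, 196 and 299.8 CPM in the WT libraries, above every Lymph-Col value (68.7 to 88.8 CPM). Proliferative EC (40.5 to 80.8 CPM) and Lymph-Cap (45.1 to 75.1 CPM) overlapped with Lymph-Col and with each other. Cap-Rgcc, Vein, fibroblast-like cells, Artery, Schwann-like cells and Cap-Kdr ran together between 17.4 and 43.1 CPM, below every Lymph-Cap value. Immune-like cells were at 0.73 to 4.79 CPM. Against the 6 EC populations, pericyte-like cells had more Gjc1 (log2 fold change 2.35, SE 0.14, adjusted p = 1.07e-19) and more Gja4 (1.44, SE 0.23, adjusted p = 1.02e-06). They had less Gja1 (-0.61, SE 0.16, adjusted p = 0.0027), a value that came to -0.0045 (adjusted p = 1.0) when cells of 5% or more mitochondrial UMIs were left out. With Gja5 (3.41, SE 0.44, adjusted p = 2.03e-08), 4 of 6 members were called, beside 31.5% of all genes. These contrasts were with the mean log2 level over the 6 EC populations. Artery stood above pericyte-like cells for Gja4 (570 to 799 against 203 to 228 CPM) and Gja5 (59.1 to 162 against 2.86 to 18.3 CPM).

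Against fibroblast-like cells, pericyte-like cells had more Gja4 (log2 fold change 5.94, SE 0.49, adjusted p = 2.78e-14) and Gjc1 (2.40, SE 0.21, adjusted p = 2.56e-13) and less Gja1 (-1.10, SE 0.20, adjusted p = 1.2e-05). Gja5 also passed, with 0 UMIs in each fibroblast-like sum, so that 4 of 6 members were called, beside 45.1% of all genes. Pericyte-like cells were not pure, and many carried EC transcripts. Their 10 EC markers summed to 3701, 3014, 3710.4 and 1656 CPM in the WT libraries. The sub-clusters P1, P2, P4 and P6 held most of these transcripts, at 3577 to 5349 CPM in WT. They had 126, 96, 51 and 24 of the 530 pericyte-like cells over all libraries. Their 13 pericyte and smooth muscle markers summed to 1854 to 11106 CPM in WT, against 17923 to 31536 CPM in P0. In P0, which had few EC markers (435 to 526 CPM in the WT libraries), Gjc1 stood at 234, 214, 185 and 352 CPM and Gja4 at 234, 214, 218 and 208 CPM. Gja1 in the same sub-cluster was 100.3, 0, 0 and 10.7 CPM, on 6, 0, 0 and 2 UMIs, the first in only 7 cells. In P4, rich in EC markers, Gja1 reached 479.9, 490.5 and 863 CPM in the 3 WT libraries with at least 5 cells. Of the sub-clusters with few EC markers (P0, P3 and P5), P0 held the most cells, 128 against 58 and 47 over all libraries. The part of EC transcripts in the Gjc1, Gja4, Gja5 and Gja1 levels of the population was not tested.

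**Figure D3:**
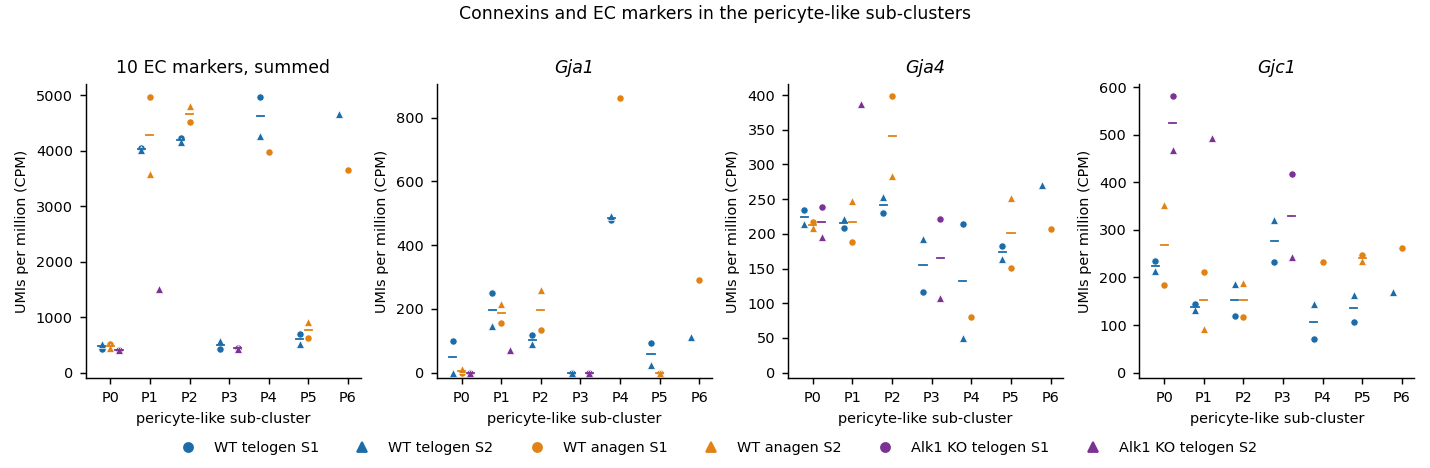
Sum of 10 EC markers and level of Gja1, Gja4 and Gjc1 (CPM, linear scales) in the 7 pericyte-like sub-clusters, 1 point per library with at least 5 cells and a bar at the mean where a group has both. Gja1 was 0 in P3 and at most 10.7 CPM in P0 apart from WT telogen S1 (100.3 CPM), and Gjc1 was present in all 7.

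Gjb2, a beta connexin of epithelia and of the inner ear, lies on chromosome 14 (57098600 to 57104702, − strand). Perineurial cells form the sheath around nerve fascicles, and the perineurial-like cells here, with 11 and 12 of 12 markers in their 2 clusters, held Gjb2 at 20.1, 14.1, 32.0 and 10.1 CPM in WT telogen S1 and S2 and WT anagen S1 and S2, on 78, 71, 65 and 38 UMIs. The 6 EC populations had at most 0.79 CPM. Unnamed ECs, which were not in this contrast, had 0 to 5.52 CPM in WT telogen and 27.8 to 28.9 CPM in WT anagen, the latter on 31 UMIs. Their cluster E9 held keratinocyte markers at 578 to 3715 CPM in the WT libraries, and the part of these in Gjb2 was not tested. The gene was called against ECs (log2 fold change 6.78, SE 0.37, adjusted p = 1.87e-21) and against fibroblast-like cells (6.16, SE 0.73, adjusted p = 9.04e-10). The size of both folds is uncertain. Over the 4 WT libraries each of the 6 EC populations held only 1 or 2 Gjb2 UMIs, and fibroblast-like cells 1. Against fibroblast-like cells the log2 fold change ran from 1.375 to 8.23 over 12 alternatives. Each keratinocyte marker sum in perineurial-like cells was low in WT, at 28.0 to 42.4 CPM over 8 markers, in the same libraries. Few cells carried it. In the 4 WT libraries 2.92 to 9.15% of perineurial-like cells had a Gjb2 UMI, and 0.78 to 2.43% after thinning to 1500 UMIs, beside at most 0.057% of WT immune-like cells. The median depth before thinning was 4237 to 6417 UMIs per perineurial-like cell and 10441 to 14929.5 per immune-like cell. The sub-cluster A3 had 35.5, 23.9, 37.8 and 13.9 CPM and A9 had 1.70, 5.01, 21.8 and 5.03 CPM, lower in each WT library.

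Of the other connexins in perineurial-like cells, Gja4 was lower than in ECs (log2 fold change -3.82, SE 0.35, adjusted p = 1.2e-13), at 1.80 to 10.9 CPM, and Gjc1 was lower (-1.24, SE 0.17, adjusted p = 2.15e-08), at 15.2 to 17.8 CPM. Gja1, the connexin with the most UMIs in these cells, did not pass against ECs (0.22, SE 0.14, adjusted p = 0.181), nor did Gja5 or Gjc3. With Gjb2 these made 3 of 6 members called, a smaller share than the 61.0% of all genes called. Against fibroblast-like cells 3 of 6 were called, where 47.7% of all genes were. These were Gjb2, Gjc1 (-1.18, SE 0.23, adjusted p = 3.62e-05) and Gja5, the last on 0.53 to 4.43 CPM in perineurial-like cells and 0 UMIs in fibroblast-like cells. The Gja5 call was lost without WT telogen S2 (adjusted p = 0.0901) and without WT anagen S1 (adjusted p = 0.0599).

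Gjc3, which Schwann cells place in their myelin, lies on chromosome 5 (137953461 to 137963098, − strand). Schwann-like cells numbered 45, 43, 10 and 8 in the WT libraries and held Gjc3 at 229, 230.1, 268 and 506 CPM, on 129, 94, 28 and 18 UMIs. All other populations had at most 0.67 CPM in WT. Perineurial-like cells against Schwann-like cells were called for Gjc3, lower (adjusted p = 1.54e-18, 0 or 1 UMI per library), and for Gja1 (log2 fold change 1.43, SE 0.24, adjusted p = 6.22e-06) and Gjb2 (1.91, SE 0.63, adjusted p = 0.0217), higher. These were 3 of 6 members, beside 23.0% of all genes. The Gjb2 call was lost in 6 of 12 alternatives, with adjusted p up to 0.439, among them without WT telogen S1 (0.225), WT anagen S1 (0.0627) or WT anagen S2 (0.0595), and the Gjc3 difference did not pass in DESeq2 (adjusted p = 0.0675). Among Schwann-like cells 17.8 to 71.4% had a Gjc3 UMI after thinning to 1500 UMIs, and 55.8 to 87.5% before, while no WT immune-like cell had one after thinning. Median depth was 3853.5 to 13039 UMIs per WT Schwann-like cell.

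Gjb6, the neighbour of Gjb2 on chromosome 14 (57123303 to 57133611, − strand), was not measurable here. Its 3 UMIs came from 1 proliferative EC and 2 ECs of an unnamed cluster, and it was tested in no comparison. Proliferative EC differed from the other ECs in 3 of 6 members, beside 34.3% of all genes. The contrast was with the mean log2 level over the 6 other EC populations, most of which held few or no Gja5 UMIs. Artery, at 59.1 to 162 CPM of Gja5, stood above proliferative EC (3.85 to 9.16 CPM). Gja5 (log2 fold change 2.66, SE 0.56, adjusted p = 0.000176) and Gjc1 (0.48, SE 0.19, adjusted p = 0.0408) were higher, the latter losing the call in 7 of 12 alternatives, among them without WT telogen S2 (adjusted p = 0.302), WT anagen S1 (0.0809) or WT anagen S2 (0.137). Gjb2 was called on 28 UMIs that all came from WT anagen S1, and without that library its log2 fold change was -0.72 (adjusted p = 1.0).

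Over the 13 populations in 4 WT libraries (52 points, which share libraries and depth), the genes with the levels most like each member's, by Pearson's r of log2 CPM among 8597 genes, were as follows. For Gja4 they were Dll4 (0.89), the arterial Notch ligand, Clic5 (0.87) and She (0.85), and for Gja5 Gkn3 (0.83), Nebl (0.76) and Vegfc (0.75). Gja1 was nearest to Pxdn (0.90), Ifitm3 (0.90) and Ppic (0.89). Gjc1 was nearest to Tgfb1i1 (0.88), Timp3 (0.85) and Map1b (0.84). Gjb2 was nearest to Mybph (0.77), Tnfsf8 (0.72) and Mpzl2 (0.71), and Gjc3 to Gpr37l1, Ncmap and Sox2 (0.9976, 0.9905 and 0.9902), all 3 of the Schwann lineage. No gene was named for Gjb6.

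The stage comparison asked whether connexin levels differed between quiescent skin (WT telogen) and skin with growing follicles (WT anagen). Age (postnatal day 20 against 32) and the time since tamoxifen on day 17 went with stage and cannot be told apart from it. WT telogen S1 was the only female among these 4 libraries, so a fit without it compared males only, with 1 telogen mouse. Gja5 in Artery was 123 and 162 CPM in telogen and 92.9 and 59.1 CPM in anagen, so the groups did not overlap, but the difference missed the threshold (adjusted p = 0.157). Without WT anagen S1 it would have been called (log2 fold change -1.17, adjusted p = 0.000777). Gja4 in Artery was 768 and 676 CPM against 570.0 and 799 CPM, and the groups overlapped (adjusted p = 0.964). Gja1 in Artery was 164 and 70.3 CPM in telogen and 187 and 189 CPM in anagen (adjusted p = 0.248), and without WT telogen S1 it was called (1.54, adjusted p = 0.00135).

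Elsewhere in the vessels no member was called, and the groups overlapped for some and not for others. How often 2 libraries against 2 failed to overlap over all genes was not tested. Gja1 in Cap-Rgcc was 828 and 637 CPM in telogen and 720.4 and 879.9 CPM in anagen, overlapping, and Gja4 in Lymph-Col was 221 and 263 CPM against 189 and 239 CPM, also overlapping. Gja1 did not overlap in Lymph-Cap (262 and 314 against 350.4 and 378 CPM, adjusted p = 0.241), in Vein (450 and 413 against 499.6 and 469 CPM, adjusted p = 0.375) or in proliferative EC (299.6 and 231 against 389 and 396 CPM, adjusted p = 0.303). Gja4 did not overlap in Cap-Kdr (115 and 69.7 against 143 and 119 CPM, adjusted p = 0.51) or in proliferative EC (45.0 and 61.6 against 77.9 and 92.5 CPM, adjusted p = 0.296). Nor did it overlap in Cap-Rgcc (18.6 to 33.6 against 35.5 to 37.2 CPM) or Lymph-Cap (75.1 to 92.3 against 105 to 111 CPM). In pericyte-like cells it was also higher in anagen (203 to 213 against 223 to 228 CPM). Vein went the other way, with 6.98 to 7.74 against 3.04 to 4.75 CPM. Gjc1 was lower in anagen without overlap in Cap-Rgcc (31.8 to 43.1 against 23.9 to 25.1 CPM). It was also lower in Vein (30.5 to 43.0 against 21.1 to 25.2 CPM) and Lymph-Cap (54.2 to 75.1 against 45.1 to 48.1 CPM). By the sign of the fitted change alone, in populations that share the same libraries, Gja1 was higher in anagen in 11 of 12 populations, Gja4 in 8 of 10 and Gjc1 in 4 of 11. Gjc1 in pericyte-like cells was 129 and 173 CPM in telogen and 196 and 299.8 CPM in anagen, without overlap (adjusted p = 0.77). Without WT anagen S1 its log2 fold change was 1.04. The sub-cluster P0, with few EC markers, held 7 of 124 and 35 of 157 pericyte-like cells in telogen. In anagen P0 held 12 of 98 and 27 of 50 cells (S1 and S2), and its part in this value was not tested. Gjb2 in perineurial-like cells (20.1 and 14.1 against 32.0 and 10.1 CPM) and Gjc3 in Schwann-like cells (229 and 230.1 against 268 and 506 CPM) were not called. In all, edgeR called 0 of 37 member tests over 12 populations (no member was tested in mast-like cells), where 0.0 to 1.46% of all genes were called (Artery 0.477%, Cap-Kdr 0.0%, Cap-Rgcc 0.0%, Vein 0.644%, Lymph-Col 1.37%, Lymph-Cap 0.193%, proliferative EC 1.0%, perineurial-like 0.881%, Schwann-like 0.0%, pericyte-like 0.0449%, fibroblast-like 0.195%, immune-like 1.46% and mast-like 0.0419%). At an unadjusted p under 0.05 there were 11 of 37, and DESeq2 called 1, Gja4 in immune-like cells. That gene had the smallest adjusted p in edgeR too (0.0592), at 3.16 and 2.37 CPM in telogen and 13.2 and 38.3 CPM in anagen. The 10 EC markers in immune-like cells moved with it, from 109 and 102 CPM to 438 and 937 CPM, and their part in this value was not tested. Leaving out any 1 library called it (adjusted p = 9.59e-05 to 0.0262).

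The KO comparison set Alk1 KO telogen against WT telogen, the study's control, within each population. Loss of the BMP9/10 receptor ALK1 was driven in Cdh5-lineage cells. The paper counts fibroblasts and immune cells among the sorted cells as contaminants without Cdh5. Whether Alk1 was deleted in fibroblast-like or immune-like cells was not tested. Gja4 fell in 4 populations, Artery, Lymph-Col, Cap-Kdr and Cap-Rgcc, Gja5 fell in Artery and Gjc1 in Lymph-Col. In all, 9 of 32 member tests over 11 populations were called, 8 lower and 1 higher, where 5.53 to 38.2% of all genes were called per population, 17 of 32 were at an unadjusted p under 0.05, and Gja4 was lower in 6 of the 7 populations in which it was tested. In bulk sums such as these, fewer cells with the transcript and fewer transcripts per cell cannot be told apart. Shares of cells with a UMI are given beside the main results. Such a share also falls when each cell holds fewer transcripts, so it does not separate them either.

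In Artery, Gja4 was 768 and 676 CPM in WT telogen S1 and S2 and 402 and 403 CPM in KO S1 and S2. The KO libraries lay together, below all 4 WT libraries. The log2 fold change was -0.84 (SE 0.14, adjusted p = 0.00179), and leaving out any 1 library gave -0.94 to -0.75 with the call kept. After thinning to 1500 UMIs a Gja4 UMI was seen in 55.0% (95% interval, Clopper-Pearson, 47.8 to 61.9) and 52.0% (44.9 to 59.0) of WT telogen Artery cells. In KO the shares were 30.4% (23.5 to 37.9) and 31.4% (25.1 to 38.2), outside the WT intervals, against at most 0.372% of telogen immune-like cells, whose median depth before thinning (6460.5 to 14929.5 UMIs) was above that of Artery cells (4872 to 5990 UMIs). Without thinning the shares were 80.4 and 80.1% in WT telogen and 57.2 and 57.1% in KO. Thinning left out 9 of 415 WT telogen and 17 of 392 KO Artery cells, and these intervals, like all others given, cover counting error only. Both Artery sub-clusters showed the difference, with Gja4 in E2 at 893 and 739 CPM in WT telogen and 462 and 489.9 CPM in KO, and in E4 at 652 and 594 CPM against 315 and 255 CPM.

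Gja5 in Artery was 123 and 162 CPM in WT telogen and 78.1 and 77.1 CPM in KO. Both KO values lay below both telogen values and between those of WT anagen (92.9 and 59.1 CPM). The log2 fold change was -0.87 (SE 0.18, adjusted p = 0.00558), and without WT telogen S2, the male control, it was -0.67 and no longer called (adjusted p = 0.064). In E2, the sub-cluster with most Gja5, levels were 228 and 277 CPM in WT telogen and 125 and 114 CPM in KO, although E2 made up a larger share of KO Artery cells (57.8 and 66.7%) than of WT telogen Artery cells (51.0 and 54.5%). After thinning, 10.9 and 18.6% of WT telogen cells and 8.93 and 12.1% of KO cells had a Gja5 UMI, which overlap. Gja1 (164 and 70.3 against 139 and 115 CPM) and Gjc1 (35.7 and 25.3 against 37.8 and 32.0 CPM) in Artery were not called. These were 2 of 4 members called, beside 17.7% of all genes. Gja1 was called higher without WT telogen S1 (0.85, adjusted p = 0.0332).

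**Figure D4:**
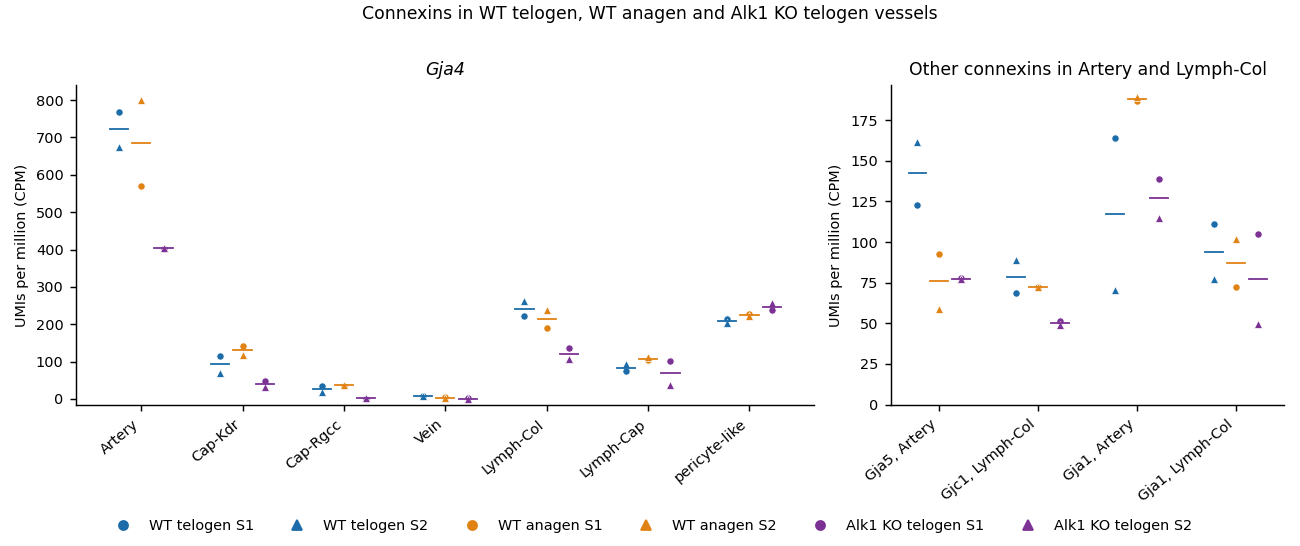
Level (CPM, linear scale) of Gja4 in 7 populations, and of Gja5, Gjc1 and Gja1 in Artery or Lymph-Col, 1 point per library and a bar at each group's mean. In Artery, Cap-Kdr, Cap-Rgcc and Lymph-Col both KO points for Gja4 lay below both WT telogen points, and in pericyte-like cells they lay above them.

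The capillaries followed. Gja4 in Cap-Rgcc was 33.6 and 18.6 CPM in WT telogen and 0.82 and 2.78 CPM in KO, on 56 and 4 UMIs. The WT to KO ratio of these UMIs was 15.2 (95% interval 5.61 to 57.7). The log2 fold change was -3.90 (SE 0.62, adjusted p = 0.00111), from -4.83 without KO S2 to -3.30 without KO S1, called each time. This was 1 of 3 members called, beside 23.0% of all genes, since Gja1 (828 and 637 against 838 and 765 CPM) and Gjc1 (31.8 and 43.1 against 38.4 and 20.4 CPM) were not called. Gjc1 was called lower without KO S1 (-0.98, adjusted p = 0.0429). In E7, the sub-cluster with most Gja4, the level went from 76.2 and 31.9 CPM to 2.25 and 4.18 CPM, while E7 held more of the KO Cap-Rgcc cells (50.7 and 56.0%) than of the WT telogen ones (37.9 and 45.5%). After thinning, 8 of 189 and 7 of 193 WT telogen cells had a Gja4 UMI, against 0 of 198 KO S1 cells, which allows a share of up to 1.52%, and 1 of 188 KO S2 cells.

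Gja4 in Cap-Kdr was 115 and 69.7 CPM in WT telogen and 47.7 and 33.0 CPM in KO, with no overlap. The log2 fold change was -1.29 (SE 0.35, adjusted p = 0.0158), 1 of 3 members called beside 26.4% of all genes. Without WT telogen S1 it was -0.90 and not called (adjusted p = 0.203), nor was it called by DESeq2 (adjusted p = 0.115) or with cells under 5% mitochondrial UMIs (adjusted p = 0.108). Gja1 (283 and 301 against 234 and 258 CPM) and Gjc1 (23.7 and 17.4 against 27.6 and 15.4 CPM) in Cap-Kdr did not pass. In Vein, Gja4 was too low to be tested, with 17 UMIs in WT telogen and 2 in KO, and Gja1 (450 and 413 against 528 and 484 CPM, adjusted p = 0.375) and Gjc1 (43.0 and 30.5 against 34.4 and 35.2 CPM, adjusted p = 0.857) were not called, where 20.2% of all genes were.

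Lymph-Col repeated the arterial pattern of Gja4. Its levels were 221 and 263 CPM in WT telogen and 136 and 106 CPM in KO, with no overlap. The log2 fold change was -1.07 (SE 0.18, adjusted p = 0.00157), and the call held without any 1 library (-1.24 to -0.89). By sub-cluster, E0 went from 258 and 280.3 CPM to 152 and 115 CPM. After thinning, 21.8 and 25.6% of WT telogen cells and 16.2 and 13.7% of KO cells had a Gja4 UMI, and 45.4 and 44.0% against 31.9 and 26.4% without thinning. Gjc1 in Lymph-Col was 68.7 and 88.8 CPM in WT telogen and 51.7 and 49.1 CPM in KO. Its log2 fold change was -0.71 (SE 0.20, adjusted p = 0.0266), and without WT telogen S2 it was -0.52 and not called (adjusted p = 0.264). Gja1 (111 and 77.0 against 105 and 49.8 CPM) was not called, and 2 of 3 members were called beside 17.8% of all genes. Without KO S1, Gja1 was called lower (-0.97, adjusted p = 0.000233). In E12, the sub-cluster rich in Gja1, that gene was at 384 and 419 CPM in WT telogen and 148 and 161 CPM in KO, on 23 and 24 UMIs in KO.

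In Lymph-Cap Gja4 was 75.1 and 92.3 CPM in WT telogen and 101 and 38.2 CPM in KO, so that the KO libraries lay on either side of the controls (adjusted p = 0.615). Without KO S1 it was called lower (-1.18, adjusted p = 0.00734). Gja1 (262 and 314 against 258 and 254 CPM) and Gjc1 (75.1 and 54.2 against 43.6 and 50.5 CPM) were not called there, where 14.9% of all genes were.

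Mural and stromal cells follow. Gja4 in pericyte-like cells was 213 and 203 CPM in WT telogen and 237 and 256 CPM in KO (adjusted p = 0.764). Gjc1 in these cells was 129 and 173 CPM in WT telogen and 489 and 336 CPM in KO, with no overlap, and narrowly missed the threshold (log2 fold change 1.37, adjusted p = 0.0505), being called in DESeq2 (adjusted p = 0.0372), without KO S1 (0.97, adjusted p = 0.00143) and without KO S2 (1.64, adjusted p = 1.59e-10). Gja5 was 12.1 and 18.3 CPM against 12.1 and 0 CPM, and without KO S1 it was called lower, with 0 UMIs left in KO (adjusted p = 0.0485). Gja1 was 213 and 129.98 CPM in WT telogen and 15.2 and 46.6 CPM in KO, on 460 and 15 UMIs. It was called lower (-2.69, SE 0.49, adjusted p = 0.0285), with -3.55 without KO S2 and -2.06 without KO S1, both called, and 1 of 4 members was called beside 5.53% of all genes. The 10 EC markers summed to 3701 and 3014 CPM in WT telogen pericyte-like cells and to 689 and 2126 CPM in KO. Sub-cluster P0 made up 5.65 and 22.3% of the WT telogen cells and 53.8 and 33.3% of the KO cells, and P3 4.84 and 3.82% against 38.5 and 36.1%. Their part in the Gja1 and Gjc1 differences was not tested. Within P0, Gja4 was 234 and 214 CPM in WT telogen and 238 and 195 CPM in KO, overlapping, Gja1 was 100.3 and 0 CPM against 0 in both, and Gjc1 was 234 and 214 CPM against 581 and 468 CPM.

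Gja1 rose in fibroblast-like cells, from 363 and 279 CPM in WT telogen to 1496 and 747 CPM in KO. Both KO values lay above all 4 WT values. The log2 fold change was 1.48 (SE 0.36, adjusted p = 0.012), 1 of 2 members called beside 38.2% of all genes, and it was 0.80 without KO S1 (still called). Gjc1 there was 32.0 and 29.1 against 36.0 and 34.6 CPM and was not called (adjusted p = 0.771). Without WT telogen S1 (adjusted p = 0.127) or WT telogen S2 (adjusted p = 0.257) the call was lost. The 10 fibroblast markers summed to 70297 and 59080 CPM in WT telogen and to 35135 and 18895 CPM in KO, and their part in this result was not tested.

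In nerve, KO cells were few. Perineurial-like cells numbered 82 and 59 in KO, against 551 and 858 in WT telogen. Gja1 there was 381 and 292 CPM in WT telogen and 1044 and 377 CPM in KO. KO S1 stood alone, and KO S2 lay within the telogen range (adjusted p = 0.0556); the gene was called without WT telogen S1 (1.21, adjusted p = 0.0216) and without KO S2 (1.58, adjusted p = 0.000171). Gjc1 was 17.8 and 16.3 CPM in WT telogen and 47.3 and 20.9 CPM in KO (adjusted p = 0.116), and without KO S2 it was called (1.42, adjusted p = 0.0236). Gjb2 was 20.1 and 14.1 CPM against 6.31 and 0 CPM, on 149 and 2 UMIs (adjusted p = 0.104). In perineurial-like cells 21.5% of all genes were called. Keratinocyte markers there summed to 539 CPM in KO S2 and to 30.1, 29.7 and 44.2 CPM in WT telogen and KO S1, and their part was not tested.

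Schwann-like cells numbered 7 and 11 in KO. Gjc3 was 229 and 230.1 CPM in WT telogen and 0 and 99.1 CPM in KO, on 223 and 4 UMIs (adjusted p = 0.053), and without KO S2 it was called lower (adjusted p = 0.00971). Gja1 had 148 UMIs in WT telogen and 0 in KO, at least 3.05-fold lower (3 counts taken over the KO libraries together as the limit of a 0 count), and it was called (adjusted p = 0.0116), 1 of 2 members beside 9.98% of all genes. The call was lost in the fit of all 6 libraries (adjusted p = 0.0907). In KO S2 the 10 Schwann markers summed to 2180 CPM, against 12457, 12862 and 13965 CPM in WT telogen and KO S1, and keratinocyte markers to 3642 CPM, against 0 to 37.2 CPM. Their part in these values was not tested. In immune-like cells, where 10.4% of all genes were called, Gja1, Gja4 and Gja5 were not called, but Gja1 was called lower without KO S1 (-1.04, adjusted p = 0.0435) and Gja5 higher by DESeq2 (adjusted p = 0.023), on 11 UMIs in WT telogen and 7 in KO.

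Whether the KO or stage response differed between populations was tested for 3 pairs fixed in the design, Artery with Lymph-Col, Artery with perineurial-like and Lymph-Col with perineurial-like cells. For Gja4, the Artery and Lymph-Col responses to KO (-0.84 and -1.07) did not differ at the threshold (adjusted p = 0.666). For genotype, 3 of 13 member tests were called, beside 5.64, 6.23 and 11.2% of all genes in the 3 pairs. They were Gja1 and Gjc1 between Lymph-Col and perineurial-like cells, both more negative in Lymph-Col, and Gja5 between Artery and Lymph-Col, where Lymph-Col had 0 UMIs in WT telogen and 1 and 4 UMIs in KO. The Gja5 call was lost without any 1 of the 4 libraries, and the other calls without any but KO S2. For stage, edgeR called 0 of 13, beside 0.116, 1.02 and 0.971% of all genes, with 4 at an unadjusted p under 0.05 and 0 in DESeq2. With likely doublets removed, edgeR called Gja4 for Artery minus perineurial-like cells (-3.00, adjusted p = 0.0108) and for Lymph-Col minus perineurial-like cells (-3.23, adjusted p = 0.00881). With no filter on low counts it called Gja4 in the same pairs and Gja1 in both pairs with Artery. The number called also changed when 1 library was left out.

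Other genes of the gap junction family were few. Of 16 listed (other connexins and pannexins), 3 were high enough to be tested between WT populations. Gjb5, a beta connexin of epithelia, was a perineurial-like transcript at 81.4, 78.5, 86.2 and 123 CPM in WT and 28.4 and 26.2 CPM in KO (KO -1.62, SE 0.32, adjusted p = 0.00346), the latter on 9 and 5 UMIs. Panx1, which forms channels to the outside of the cell, was called lower in KO in perineurial-like cells (-2.64, SE 0.78, adjusted p = 0.0298) and fibroblast-like cells (-1.53, SE 0.40, adjusted p = 0.0167). It had 91 and 116 UMIs in WT telogen and 2 and 0 in KO perineurial-like cells, and 81 and 99 against 5 and 6 in fibroblast-like cells. Gjb5 was also called lower in fibroblast-like cells (-3.18, SE 1.06, adjusted p = 0.0428, on 18 and 37 UMIs in WT telogen and 1 and 0 in KO). Of all genes, 21.5% were called in KO perineurial-like cells and 38.2% in KO fibroblast-like cells.

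Of 25 genes for connexin partners, kinases and trafficking, 22 were tested in KO Artery and 4 were lower (0 higher), beside 17.7% of all genes: Dbn1 (-1.93, SE 0.40, adjusted p = 0.00559), a partner of Gja1 on the actin side, Vcl (-0.85, SE 0.18, adjusted p = 0.00742), Ywhaq and Prkca. The list's median was -0.03, against 0.0092 over all genes. In Lymph-Col 2 of 21 were higher (Dlg1 and Eps15) and 3 lower, among them Ctnnb1 and Vcl, beside 17.8% of all genes called. Ccn3, a secreted protein that binds Gja1, was higher in KO Cap-Rgcc, at 24.5 and 16.6 CPM in WT telogen and 549 and 287 CPM in KO (4.28, SE 0.36, adjusted p = 2.78e-05), and in Cap-Kdr, Vein and fibroblast-like cells. In Cap-Rgcc 2 of 20 were higher (Ccn3 and Tjp1) and 1 lower (Ctnnb1), beside 23.0% of all genes called. Of the 8 lymphatic valve genes in KO Lymph-Col, Sema3a (1.39, SE 0.16, adjusted p = 0.000186) and Piezo1 (0.89, SE 0.18, adjusted p = 0.00543) were higher, and Itga9 (-1.42, SE 0.18, adjusted p = 0.000346) and Cldn11 (-0.99, SE 0.16, adjusted p = 0.00154) lower, with a list median of 0.06 against 0.0047 over all genes.

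Each group held 2 mice, so single calls rest on 4 libraries, and WT telogen served as the control of both comparisons. Transcripts were counted, not channels.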

How the data were processed

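Cells of 6 libraries, each from 1 mouse, were profiled with 10x Chromium 3′ v3 chemistry on a NextSeq-500. The authors deposited raw UMI counts per gene and filtered barcode, produced by Cell Ranger 6.0.1 from reads mapped to mm10, and analysed them in Seurat 4.0, per the labels and the study's methods. Library totals were 10615358 to 43317677 UMIs, and the kept cells of a library had a median of 4371 to 6935 UMIs.

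Cells with 200 to 5000 genes and under 10% mitochondrial UMIs were kept. Doublets were not removed in the main analysis, and an alternative removed the 5% of cells per library with the highest doublet score. Cells were clustered on 3000 variable genes without the connexins (30 principal components, Harmony-style correction between libraries, 20 neighbours, Leiden resolution 0.6; leidenalg 0.10.2 with igraph 0.11.9, scikit-learn 1.9.0, Python 3.11.15) and named from fixed markers, none of them a connexin. Names were rebuilt here and may differ from those of the study. UMIs were summed per library and population with at least 5 cells in every library compared and tested with edgeR 4.0.16 (R 4.3.3), quasi-likelihood F test with TMM factors and filterByExpr, with p-values adjusted by Benjamini-Hochberg over all genes tested. Population contrasts used the 4 WT libraries with library as a block. Stage and genotype contrasts used the libraries of the groups compared, and differences in response an interaction term. A gene was called when its adjusted p was below 0.05 and its fold above 1.3, the fold being waived for differences in response. The SE printed beside a log2 fold change was its absolute value divided by the square root of F, not a separately fitted error. For stage and genotype, p-values rest on the spread between 2 mice per group, which edgeR moderates for each gene by the spread of all genes tested. Those between populations and for differences in response rest on the spread of populations within libraries. In stage, genotype and response fits with 1 library left out, 1 group held 1 mouse and added no spread of its own.

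Shares of cells were taken after thinning each cell to 1500 UMIs, with 95% Clopper-Pearson intervals, and a count of 0 was read as up to 3 counts. Promoter windows came from RefSeq (GRCm38.p6), where 6 of the 7 members matched. By the naming rule all 7 members could be named in every comparison, and those not printed there were tested without a call or were too low to test. From the lists of other family members, partners and valve genes, up to 10 called genes per comparison could be named, by smallest adjusted p. Results of some listed genes are not reported here. The 3 genes nearest to each member were taken by Pearson's r of log2 CPM (prior 1) among genes with a mean of at least 10 CPM. Members and lists were chosen with earlier results of these data known.

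The edgeR fits were tested on simulated data. All genes were given 1 dispersion, estimated from the WT telogen Artery libraries, and only genes well counted in Artery were changed. The rates below may not hold for sparser members or populations. False calls numbered 11, 5, 14 and 3 in the comparisons in the order given. Of genes changed 2-fold and 4-fold, 73% and 99% were recovered in the stage comparison of Artery, 57% and 94% in the KO comparison of Artery, 98% and 100% for Artery against the other blood ECs, and 22% and 79% for the difference in KO response of Artery and Lymph-Col. Alternatives were DESeq2 1.42.0, RLE size factors, other cell filters, Leiden resolution 1.2, omitting the correction between libraries, the low-count filter or the fold threshold, all 6 libraries in 1 fit, the replicate number as a block and each library left out. Populations with at least 20 cells per library were an alternative chosen after the data were seen.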

Additional observations from a re-analysis of the deposited data

Results flagged for a closer look

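The KO response of 3 connexins differed between populations by the interaction term of edgeR's quasi-likelihood test. For Gja5 the response in Artery minus that in Lymph-Col was -5.22 on the log2 scale (SE 1.52, adjusted p = 0.0356), on Lymph-Col counts of 0 UMIs in WT telogen and 1 and 4 UMIs in KO. Without WT telogen S1, WT telogen S2, KO S1 or KO S2 the adjusted p was 0.114, 0.319, 0.0555 and 0.362. For Gja1 the response in Lymph-Col minus that in perineurial-like cells was -1.19 (SE 0.28, adjusted p = 0.00142). It was lost without WT telogen S1 (adjusted p = 0.275), WT telogen S2 (0.16) or KO S1 (0.12) and was kept without KO S2 (3.79e-08). For Gjc1 the same difference was -1.62 (SE 0.49, adjusted p = 0.0186), with 0.103, 0.383 and 0.693 without those libraries and 0.00123 without KO S2. The median over all genes of the Lymph-Col minus perineurial-like difference was 0.19, and KO perineurial-like cells numbered 82 and 59.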

How the results depend on the processing

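Of 54 member tests between populations 29 were called, and 23 to 29 under every alternative. The 9 KO calls became 5 to 15 when 1 library was left out (5 without WT telogen S2, the male control, 8 without WT telogen S1, 15 without KO S1 and 13 without KO S2) and 8 to 13 under the other settings. The stage calls, 0 of 37, became 5 with no filter on low counts, 1 with DESeq2, 1 in the fit of all 6 libraries and 1 to 3 when 1 library was left out. The 3 calls for a difference in response, counted over stage and KO together, became 1 under 5% mitochondrial UMIs and 7 with no filter on low counts. Those 7 included stage responses of Gja1 and Gja4. The number also changed when 1 library was left out. The lower Gja4 in KO Artery (-0.94 to -0.67), Cap-Rgcc (-4.83 to -2.50) and Lymph-Col (-1.24 to -0.89) and Gja1 in pericyte-like cells (-9.87 to -2.06) kept the call in all 14 alternatives. Gjc1 in KO Lymph-Col also missed it with no correction between libraries (adjusted p = 0.0579), no filter (0.0914) and DESeq2 (0.153). The lower Gja1 of pericyte-like against fibroblast-like cells was lost under 5% mitochondrial UMIs (-0.49, adjusted p = 0.0744). No alternative held the sub-cluster make-up of pericyte-like cells fixed, so the kept Gja1 call in KO does not bear on that make-up. Gjb2 in proliferative EC ran from -0.72 without WT anagen S1, where its direction turned, to 5.50 without WT anagen S2. With at least 20 cells per library, chosen after the data were seen, 8 KO and 0 stage tests were called. Of 59 shares of cells, 47 moved beyond their interval when thinned to 3000 UMIs and 52 without thinning.

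The main stage and KO fits did not pair mice by replicate number. Same-numbered libraries of telogen and anagen deviated together with a median correlation of 0.0078 over 13 populations (-0.18 to 0.28). For telogen and KO it was 0.0718 over 11 (-0.20 to 0.15). With 2 mice per group, of different sex in WT telogen only, these correlations cannot show whether same-numbered mice were paired. With the number as a replicate block, the stage fit called 1 test, Gja4 in immune-like cells (adjusted p = 0.0449), and the KO fit 9, with Gja1 in Schwann-like cells missing the threshold (0.0787) and Gja1 in perineurial-like cells gaining it (0.85, 0.00734).

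Except where stated, the cause of a changed call was not tested. Gjb6 (3 UMIs), Gjb2 and Gjc3 rest on few UMIs, and the KO libraries held the fewest cells.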

Other observations

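Lymph-Cap, where no connexin of the 7 was called in KO, nevertheless held changed valve genes. Of the 8 listed, 4 were higher in KO (Sema3a 1.52, Foxc2 1.29, Foxc1 1.09 and Gata2 0.75 on the log2 scale) and 2 lower (Itga9 -1.21 and Cldn11 -1.43), with a list median of 0.46 against 0.0171 over all genes and 14.9% of all genes called. Adjusted p-values from edgeR ran from 0.000104 to 0.0163. In the same cells 1 of 22 connexin partners was higher (Dlg1, 1.21) and 4 lower, among them Ctnnb1 (-0.82) and Cav1 (-0.62).

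In fibroblast-like cells, the population in which Gja1 was higher in KO, Ccn3 was 7.45 and 14.0 CPM in WT telogen and 539.5 and 106 CPM in KO (log2 fold change 4.52, SE 0.71, adjusted p = 0.00182). Cav1, which encodes the caveolar coat protein caveolin, was 203 and 258 CPM against 25.2 and 41.5 CPM (-3.08, SE 0.30, adjusted p = 0.00025). The fall in fibroblast markers given for these cells in the report moved with both values, and its part was not tested.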
